A study of Mus musculus with 6 samples.

Results

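The miR-181 family was described in small RNA libraries from mouse renal cortex. Its members were the 7 mature names mmu-miR-181a-5p, mmu-miR-181a-1-3p, mmu-miR-181a-2-3p, mmu-miR-181b-5p, mmu-miR-181c-5p, mmu-miR-181c-3p and mmu-miR-181d-5p, matched by name among 1900 mature names in the count tables. They filled 9 of the 2033 rows of each table, because miR-181a-5p and miR-181b-5p are each listed under 2 precursors. For such names the row with the most reads in a library was used. The tofogliflozin group was 3 C57BL/6 mice on the HF/HC/HS/BA diet (high fat, high cholesterol, bile salt) with tofogliflozin for 8 weeks, and the diet-only group was 3 C57BL/6 mice on the HF/HC/HS/BA diet alone for 8 weeks. Tofogliflozin inhibits SGLT2, the glucose transporter of the proximal tubule. Both groups carried the steatohepatitis-inducing diet, so no comparison with mice on normal chow was made here, and the sources used here give no age or sex of the mice.

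A miRNA is cut from a hairpin precursor whose 5p and 3p arms can both yield a mature strand, and it lowers mRNAs that match its seed, the bases near its 5′ end. The miR-181 family is known from lymphocytes, where miR-181a raises the sensitivity of the T cell receptor in mice, and from endothelium, where miR-181b limits NF-κB signalling. In bulk cortex, fewer cells of a type and less RNA per cell cannot be told apart.

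The family comes from 3 hairpin pairs on GRCm38 (mm10). Mir181a-1 (chromosome 1, 137966455 to 137966541, plus strand) and Mir181b-1 (137966639 to 137966718) lie 97 bases apart, in an intron of the noncoding gene Gm4258 and overlapping an exon of the lincRNA A430106G13Rik, both on the same strand. Mir181a-2 (chromosome 2, 38852735 to 38852810, plus strand) and Mir181b-2 (38853830 to 38853918) lie 1019 bases apart, opposite to an intron of Nr6a1, a nuclear receptor gene on the minus strand. Mir181d (chromosome 8, 84178716 to 84178787, minus strand) and Mir181c (84178873 to 84178961) lie 85 bases apart in an intron of Nanos3 on the same strand. Annotations are from GENCODE M21.

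The mature sequences, from RefSeq on GRCm38.p6, are shown because they set which reads can be told apart. Seeds (bases 2 to 8 from the 5′ end) are in capitals.
miR-181a-5p: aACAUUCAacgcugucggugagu
miR-181b-5p: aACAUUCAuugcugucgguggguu
miR-181c-5p: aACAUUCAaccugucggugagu
miR-181d-5p: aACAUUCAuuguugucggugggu
miR-181a-1-3p: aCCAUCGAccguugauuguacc
miR-181a-2-3p: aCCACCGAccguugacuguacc
miR-181c-3p: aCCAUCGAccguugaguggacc

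All 4 members of the 5p arm carry the seed ACAUUCA, and no other mouse mature name in the RefSeq table carries it. miR-181a-1-3p and miR-181c-3p share the seed CCAUCGA, while miR-181a-2-3p has CCACCGA. Counted from the 5′ end, miR-181b-5p and miR-181d-5p differ over their first 23 bases by C12U alone, although they come from different chromosomes. miR-181a-5p differs from miR-181b-5p by A9U, C10U and A21G over the same length, and from miR-181c-5p by 1 base left out (edit distance 1). Between the 3p strands, miR-181a-1-3p differs from miR-181a-2-3p by U5C and U16C and from miR-181c-3p by U16G and U19G. How the authors' counting assigned reads with a mismatch is not given in the sources used here, so values of these near-identical members carry that uncertainty.

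Libraries held 6643638 to 17241972 reads with tofogliflozin and 14276384 to 22886200 on the diet alone, counted once per mature name. Tofogliflozin replicate 2 had the fewest reads and stood apart on the first principal component (50.2% of the variance). Its erythroid miRNAs summed to 451 CPM, against 285 and 165 CPM in the other tofogliflozin libraries and 91.3, 157 and 326 CPM on the diet alone. Most of this sum came from miR-486-5p and miR-3107-5p, listed at near-equal means of 139 and 149 CPM with tofogliflozin. On the diet alone their means were 88.2 and 94.0 CPM. Whether both names count the same reads was not tested. The liver miRNA miR-122-5p was at 245.5 CPM in it, against 40.7 to 78.6 CPM in the other 5 libraries.

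miR-181a-5p dominated the family, and miR-181b-5p, miR-181d-5p, miR-181c-5p, miR-181a-1-3p and miR-181c-3p followed in that order. By mean level over the 6 libraries these ranked 51, 89, 140, 244, 256 and 302 among the 1026 mature names with a count. miR-181a-2-3p had no read in any library. Levels are counts per 1000000 of the library size after TMM scaling (CPM), and all members are 22 to 24 bases long.

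miR-181a-5p was at 1643, 1391 and 1741 CPM in tofogliflozin replicates 1, 2 and 3, against 1272, 1471 and 1427 CPM in diet-only replicates 1, 2 and 3. Tofogliflozin replicate 2 lay among the diet-only libraries, so the groups overlapped. miR-181b-5p, the paralog that lies beside miR-181a in both the chromosome 1 and the chromosome 2 pair, was at 408, 435 and 379 CPM with tofogliflozin, against 279.5, 335.5 and 353.5 CPM on the diet alone. All 3 tofogliflozin libraries lay above all 3 diet-only libraries.

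miR-181d-5p, from the chromosome 8 pair, was at 90.7, 111 and 88.8 CPM with tofogliflozin, against 76.1, 78.8 and 71.5 CPM on the diet alone. Here too the groups did not overlap, with tofogliflozin replicate 2 highest. Its neighbour miR-181c-5p was at 12.8, 7.16 and 16.1 CPM with tofogliflozin, against 11.1, 9.07 and 9.62 CPM on the diet alone. The lowest value, from 48 reads, was in tofogliflozin replicate 2, which held the highest value of miR-181d-5p, and the groups overlapped.

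Of the 3p strands, miR-181a-1-3p was at 8.65, 7.61 and 10.1 CPM with tofogliflozin, against 7.48, 12.9 and 9.23 CPM on the diet alone. Its highest library was diet-only replicate 2. miR-181c-3p was at 4.14, 4.62 and 4.81 CPM with tofogliflozin, against 4.36, 3.95 and 3.64 CPM on the diet alone. Its libraries spanned a narrow range with overlapping groups. miR-181a-2-3p had 0 reads in each library, where 3 reads would be 0.166 to 0.447 CPM with tofogliflozin and 0.132 to 0.219 CPM on the diet alone, a limit that covers counting error only.

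**Figure D1:**
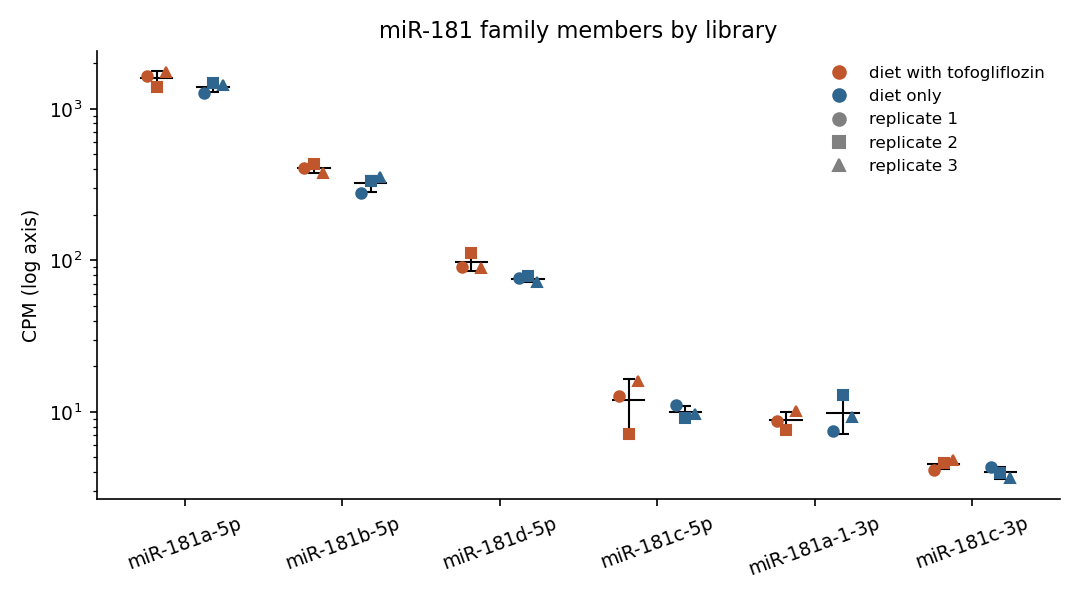
CPM on a log axis of the 6 members with a read, by library, with tofogliflozin (orange) left of diet only (blue); bars are the mean and SD of 3 mice and symbols mark the replicate. miR-181b-5p and miR-181d-5p are the members whose groups do not overlap, and miR-181a-2-3p, at 0 reads in each library, is not drawn.

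The order of levels was tested over all 21 pairs of members with an exact paired permutation test over the 6 libraries, 2-sided, on log2 CPM with 2 added to each count. In 20 pairs the same member was higher in 6 of 6 libraries, at an exact p of 0.0312, which is the smallest that 6 pairs allow, and an adjusted p of 0.0328 (Benjamini-Hochberg over the 21 pairs). Of these 20 pairs, 14 set members with reads against each other. The other 6 set a member against miR-181a-2-3p, listed at 0, so their direction and p were fixed in advance and tell nothing of the order. Among neighbours in the order, miR-181a-5p was 4.10-fold above miR-181b-5p, which was 4.23-fold above miR-181d-5p, which was 7.93-fold above miR-181c-5p. The exception was miR-181c-5p against miR-181a-1-3p. They differed by 0.21 ± 0.46 on the log2 scale (SD over 6 libraries), with miR-181c-5p higher in 4 of 6 (exact p = 0.281, adjusted p = 0.281), so their order was not distinguishable. Read numbers compare molecules of different sequence, and the efficiency with which each was captured was not measured here.

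Of all reads of the family, miR-181a-5p made up 74.9% ± 3.43 with tofogliflozin and 76.7% ± 0.522 on the diet alone (SD, n = 3 each). miR-181b-5p made up 19.3% ± 2.70 and miR-181d-5p 4.61% ± 0.941 with tofogliflozin, against 17.8% ± 0.984 for miR-181b-5p and 4.18% ± 0.403 for miR-181d-5p on the diet alone. The other members together were a small remainder, each with a share under that of miR-181d-5p in every library. Summed, the 7 members stood at 2168, 1957 and 2240 CPM in tofogliflozin replicates 1 to 3 and at 1650, 1911 and 1874 CPM in diet-only replicates 1 to 3. The means were 2122 ± 147 CPM with tofogliflozin and 1812 ± 141 CPM on the diet alone (SD, n = 3 each). The mean log2 sums differed by 0.23, which is 1.17-fold. No test was made of this sum.

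The question of the series, whether tofogliflozin changed the miRNA content of the cortex, was asked of each member with edgeR's quasi-likelihood test over all 460 miRNAs that passed its filter on low counts. None of the 6 tested members passed the threshold of 0.05 after Benjamini-Hochberg adjustment, and neither did any other miRNA (0 of 460, 0%). The smallest adjusted p of a member was 0.854. At an unadjusted p under 0.05, edgeR had 23 miRNAs. By the other tools, DESeq2 called 2 miRNAs and had 28 at an unadjusted p under 0.05, while limma-voom called 0 and had 21. No member was among the miRNAs called by these tools.

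miR-181d-5p averaged 97.0 ± 12.5 CPM with tofogliflozin and 75.5 ± 3.72 CPM on the diet alone (SD, n = 3 each), which gave a log2 fold change of 0.36 ± 0.15 (SE) and a 95% interval from 0.0046 to 0.72. It was higher in 3 of 3 tofogliflozin libraries, with an unadjusted p of 0.0477 and an adjusted p of 0.854 by edgeR. miR-181b-5p averaged 408 ± 28.1 CPM with tofogliflozin and 323 ± 38.6 CPM on the diet alone (SD, n = 3 each), which gave a log2 fold change of 0.34 ± 0.14 (SE) with an interval from 0.019 to 0.65, that is 1.01-fold to 1.57-fold. It too was higher in 3 of 3 tofogliflozin libraries, with an unadjusted p of 0.0402 and an adjusted p of 0.854 by edgeR. An exact permutation test of either member gave p = 0.1, below which a design with 3 mice a group cannot go.

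These 2 were the members at an unadjusted p under 0.05 in the direction higher with tofogliflozin, where 12 of 460 miRNAs (2.61%) were. They were also the members whose groups did not overlap in that direction, where 23 of 460 miRNAs (5%) did not. The members were chosen with the value of miR-181b-5p known, so setting them beside these shares is a description. Over the alternative settings, the unadjusted p stayed under 0.05 in 11 of 18 for miR-181b-5p (0.0252 to 0.122) and in 8 of 18 for miR-181d-5p (0.0268 to 0.138). Both were highest in tofogliflozin replicate 2, the library with the fewest reads and the most erythroid and liver miRNA. Without it the log2 fold changes were 0.29 for miR-181b-5p and 0.25 for miR-181d-5p, with adjusted p = 0.876 and 0.915 by edgeR. miR-181b-5p fell further, to 0.26, without diet-only replicate 1, its lowest library (adjusted p = 0.956 by edgeR).

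The other 4 tested members had intervals on both sides of 0. miR-181a-5p averaged 1592 ± 180.9 CPM with tofogliflozin and 1390 ± 105 CPM on the diet alone (SD, n = 3 each), which gave a log2 fold change of 0.20 ± 0.13 (SE) and an interval from -0.10 to 0.49. Without tofogliflozin replicate 2 it was at 0.29 (unadjusted p = 0.0277, adjusted p = 0.876 by edgeR). miR-181c-5p averaged 12.01 ± 4.52 CPM with tofogliflozin and 9.91 ± 1.02 CPM on the diet alone, at 0.29 ± 0.29 (SE) and an interval from -0.38 to 0.97. That value turned on single libraries, since it was 0.54 without tofogliflozin replicate 2 (unadjusted p = 0.0237, adjusted p = 0.827 by edgeR) and 0.051 without tofogliflozin replicate 3. miR-181c-3p was at 0.18 ± 0.23 (SE) with an interval from -0.35 to 0.71, and at 0.29 without tofogliflozin replicate 1. miR-181a-1-3p was the member below 0, at -0.16 ± 0.26 (SE) with an interval from -0.75 to 0.44, and at 0.11 without diet-only replicate 2.

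With 5 of 6 tested members above 0, the family had a median log2 fold change of 0.24, beside 226 of 460 miRNAs above 0 (49.1%) and a median of -0.0052 over all tested. The seventh member, miR-181a-2-3p, was not tested, having no reads. Since members with near-identical sequence or from a shared hairpin pair are not independent, this count is a description.

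**Figure D2:**
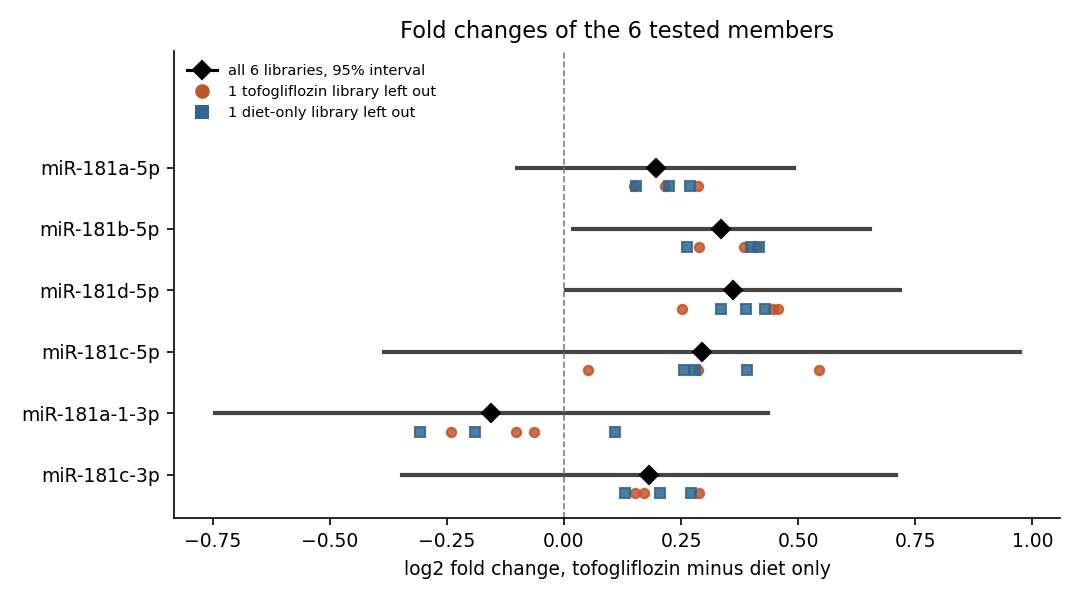
Log2 fold change of tofogliflozin minus diet only for the 6 tested members, as edgeR's estimate with its 95% interval (diamond and line) and with 1 library left out in turn (points under each line). The lower ends of the intervals of miR-181b-5p and miR-181d-5p lie just above 0, and the estimate of miR-181a-1-3p crosses 0 when diet-only replicate 2 is left out.

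The spread between mice differed among members. miR-181a-5p had a coefficient of variation of 11.4% with tofogliflozin and 7.53% on the diet alone, where counting error alone gives 0.757% and 0.656%. For miR-181c-5p these were 37.6% with tofogliflozin and 10.3% on the diet alone, against counting errors of 9.30% and 7.84%. For miR-181c-3p, with 31 to 99 reads in a library, the spread was 7.63% with tofogliflozin and 9.06% on the diet alone, below its counting errors of 14.0% and 12.3%. Counting error thus limits what can be seen in miR-181c-3p at this depth.

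Paralogs were next compared as ratios within a library, which need no scaling factor. Reads of miR-181a-5p over those of miR-181b-5p were 4.02, 3.19 and 4.59 in tofogliflozin replicates 1 to 3, against 4.55, 4.38 and 4.04 in diet-only replicates 1 to 3. The lowest ratio was again in tofogliflozin replicate 2. The log2 ratio differed by -0.15 ± 0.16 (SE; exact permutation p = 0.6, 2-sided, n = 3 each), and by -0.0064 without tofogliflozin replicate 2. Reads of miR-181d-5p over those of miR-181c-5p, which share an intron of Nanos3, were 7.09, 15.6 and 5.52 with tofogliflozin, against 6.89, 8.69 and 7.43 on the diet alone. Tofogliflozin held both the highest and the lowest library. Taken as miR-181c-5p over miR-181d-5p the log2 ratio differed by -0.15 ± 0.45 (SE; exact permutation p = 0.9, n = 3 each), and by 0.29 without tofogliflozin replicate 2.

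The log2 ratio of miR-181a-5p to miR-181c-5p differed by -0.018 ± 0.284 (SE) and that of miR-181b-5p to miR-181d-5p by -0.014 ± 0.138 (SE), both with an exact permutation p of 1. The ratio of the a and b paralogs to the c and d paralogs, that is of the chromosome 1 and 2 pairs to the chromosome 8 pair, was 18.5 ± 2.68 with tofogliflozin and 20.1 ± 2.11 on the diet alone (SD, n = 3 each; log2 difference -0.13 ± 0.15 (SE), exact permutation p = 0.5). Without tofogliflozin replicate 2 that difference was -0.00078, and without diet-only replicate 1 it was -0.21. The groups overlapped in each of these 5 ratios, and all 5 p-values were 1 after adjustment. A shift between paralogs was not detectable with 3 mice a group, where no p can go below 0.1.

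The arms of miR-181a were used very unequally. Reads of miR-181a-5p over miR-181a-1-3p were 189.9, 183 and 173 in tofogliflozin replicates 1 to 3, against 170.0, 114 and 155 in diet-only replicates 1 to 3. The numerator also holds reads from Mir181a-2, whose 5p strand has the same sequence. The groups did not overlap, the nearest libraries being at 173 with tofogliflozin and 170.0 on the diet alone. The same separation in this direction was found in 4 of 91 hairpins (4.4%). With limma over 91 hairpins the log2 ratio differed by 0.33 ± 0.23 (SE), with an interval from -0.20 to 0.85 (unadjusted p = 0.191, adjusted p = 0.948), and by 0.16 without diet-only replicate 2.

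The miR-181c hairpin was more even than that of miR-181a. Reads of miR-181c-5p over miR-181c-3p were 3.09, 1.55 and 3.35 with tofogliflozin, against 2.54, 2.30 and 2.64 on the diet alone, with tofogliflozin replicate 2 lowest. The log2 ratio differed by 0.017 ± 0.318 (SE; adjusted p = 0.991 by limma) and changed sign with single libraries left out. Of the 91 hairpins, 23 were more uneven than miR-181a and 74 more uneven than miR-181c. Hairpins whose lower arm averaged under 50 reads, which can be the more uneven ones, are not among these 91. Left out in the family were the miR-181b hairpins, with 31677 reads of miR-181b-5p over all libraries against 50 of miR-181b-1-3p and 27 of miR-181b-2-3p. Also left out were Mir181a-2, with 0 reads of miR-181a-2-3p, and Mir181d, with 7487 reads of miR-181d-5p against 0 of miR-181d-3p. No hairpin passed the threshold (0 of 91, 0%) and 1 had an unadjusted p under 0.05 in limma.

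**Figure D3:**
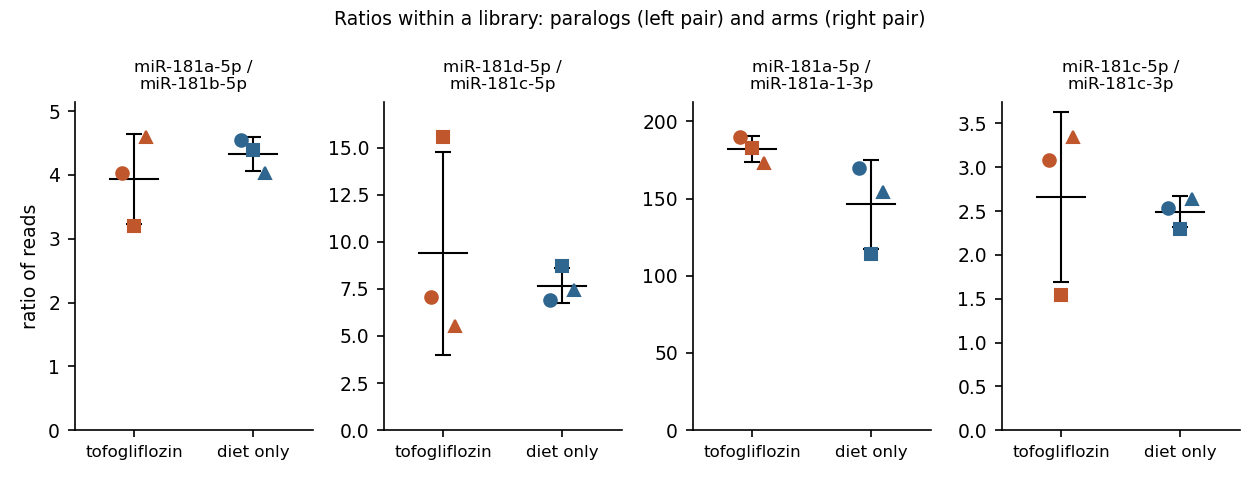
Read ratios within each library for 2 pairs of paralogs and 2 pairs of arms, with tofogliflozin (orange) left of diet only (blue); bars are the mean and SD of 3 mice, and circles, squares and triangles are replicates 1, 2 and 3. Tofogliflozin replicate 2 is lowest for miR-181a-5p over miR-181b-5p and for miR-181c-5p over miR-181c-3p, and highest for miR-181d-5p over miR-181c-5p.

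The 3p strands differ between the chromosome 1 and chromosome 2 copies of miR-181a, unlike the 5p strand. miR-181a-1-3p had 117, 51 and 182 reads with tofogliflozin, against 170, 176 and 142 reads on the diet alone, while miR-181a-2-3p was listed at 0 in each library. A true absence of miR-181a-2-3p and a gap in the counting cannot be told apart, so no fold is given. Of 195 hairpins with at least 1000 reads in the higher arm over all libraries, 26 had 0 in the lower arm, and of 67 with at least 100000 reads, 5 did. The 26 and the 5 include Mir181a-2 itself, whose 5p reads also hold those of Mir181a-1. The 26 include Mir181d as well. Among names of the family that are not members, miR-181d-3p was also at 0 in each library, miR-181b-1-3p had 2 to 9 reads with tofogliflozin and 6 to 22 on the diet alone, and miR-181b-2-3p had 2 to 6 with tofogliflozin and 3 to 6 on the diet alone.

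The 5p strands of the a and b copies are identical, so their reads cannot be assigned to a chromosome by the mature sequence. The rows of miR-181a-5p under Mir181a-1 and Mir181a-2 differed by at most 6 reads in a library. Those of miR-181b-5p differed more, with more reads under Mir181b-2 in 6 of 6 libraries. The hairpins are shown because they part right after the mature sequence, which is in capitals.
Mir181b-1: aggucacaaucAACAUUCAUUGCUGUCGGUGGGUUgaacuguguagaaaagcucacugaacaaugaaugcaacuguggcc
Mir181b-2: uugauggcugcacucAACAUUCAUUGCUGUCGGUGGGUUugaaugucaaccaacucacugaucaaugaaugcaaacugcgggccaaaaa

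After the mature miR-181b-5p sequence these hairpins share 0 bases, whereas Mir181a-1 and Mir181a-2 share the next 4. The surplus under Mir181b-2 was 184, 282 and 94 reads in tofogliflozin replicates 1 to 3, against 133, 110 and 162 reads in diet-only replicates 1 to 3. As a share of the larger row it was 9.66% in tofogliflozin replicate 2 and 1.37% to 3.33% in the other 5 libraries. What set this surplus was not tested. With the smaller row in place of the larger, the log2 fold change of miR-181b-5p was 0.31 (adjusted p = 0.845 by edgeR).

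**Figure D4:**
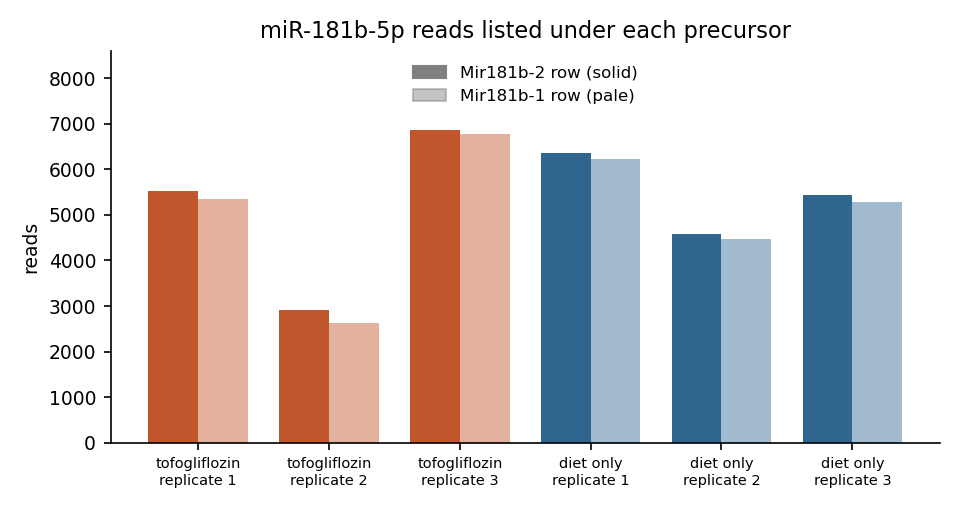
Reads of miR-181b-5p listed under Mir181b-2 (solid) and Mir181b-1 (pale) in each library, with tofogliflozin libraries (orange) left of diet only (blue). The solid bar is higher in each library, by 282 reads in tofogliflozin replicate 2 and by 94 to 184 reads in the others.

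Profiles over the 6 libraries were compared by the mean absolute difference of centred log2 CPM, where 0 is the same profile. Closest to miR-181a-5p outside the family, among 459 miRNAs, were miR-375-3p (0.0522), miR-3084-5p (0.0551) and miR-1839-5p (0.0719), beside a median of 0.287 over all. In the family miR-181b-5p was at 0.137 (rank 37), miR-181c-3p at 0.166 (rank 72), miR-181d-5p at 0.178 (rank 88), miR-181a-1-3p at 0.185 (rank 98) and miR-181c-5p at 0.247 (rank 179). For miR-181c-5p the closest were miR-193a-5p (0.135), miR-700-3p (0.137) and miR-322-3p (0.157), with a median of 0.389 over all. Within the family miR-181a-5p was at 0.247 from it (rank 55), its own arm partner miR-181c-3p at 0.274 (rank 87), miR-181b-5p at 0.343 (rank 172), its neighbour miR-181d-5p at 0.343 (rank 175) and miR-181a-1-3p at 0.385 (rank 224). Counting error enters these distances, at 9.30% with tofogliflozin and 7.84% on the diet alone for miR-181c-5p. For miR-181c-3p it was 14.0% with tofogliflozin and 12.3% on the diet alone. Its part in the distances and ranks was not tested.

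Lists of miRNAs that act in the same settings were set beside the family. Of 12 regulators of NF-κB and Toll-like receptor signalling, 3 had a log2 fold change above 0 and 9 below (median -0.13), 2 of the 9 with unadjusted p-values under 0.05, where 11 of 460 miRNAs (2.39%) lay in that direction. None had an adjusted p under 0.05 in edgeR. These 2 were miR-147-3p, induced in activated macrophages, at -1.31 ± 0.38 (SE), and miR-146a-5p, which damps NF-κB activity through proteins that signal below Toll-like receptors, at -0.60 ± 0.22 (SE). miR-146a-5p was at -0.27 without diet-only replicate 2. With no low-count filter both passed the threshold of edgeR (adjusted p = 0.028 for each). That setting also called miR-122-5p (adjusted p = 0.00042), which in the filtered fit was at -0.18 without tofogliflozin replicate 2. Neither miR-147-3p nor miR-146a-5p passed with DESeq2 (adjusted p = 0.199 and 0.774) or limma-voom (0.883 for each). The level of miR-147-3p was low, at 2.33 ± 0.51 CPM with tofogliflozin and 5.79 ± 2.45 CPM on the diet alone (SD). Of all 460 miRNAs tested, 226 (49.1%) were above 0, and 12 (2.61%) were higher with tofogliflozin at an unadjusted p under 0.05 by edgeR. Of 8 miRNAs of lymphocyte development and activation, 3 were above 0 and 5 below (median -0.16), with 1 in each direction at an unadjusted p under 0.05. The lower one was again miR-146a-5p, which both lists hold, and the higher one was miR-92a-3p at 0.28 ± 0.11 (SE). With the smallest row per library miR-92a-3p was at 0.17 (unadjusted p = 0.272, adjusted p = 0.871 by edgeR).

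Marker miRNAs of cells that could carry the family were also measured. The 6 leukocyte markers summed to 130 to 195 CPM with tofogliflozin and 140 to 193 CPM on the diet alone. Of these, 1 was above 0 and 5 below (median -0.20), beside 226 of 460 miRNAs above 0 (49.1%). The 4 endothelial markers, led by miR-126a-3p, summed to 16250 to 21650 CPM with tofogliflozin and 18900 to 23010 CPM on the diet alone, 2 above 0 and 2 below. The 3 neural markers summed to 2615 to 2783 CPM with tofogliflozin and 2637 to 3085 CPM on the diet alone. Of these, miR-9-5p had a log2 fold change above 0 and miR-128-3p one below, while miR-124-3p had 0 reads in each library. The 6 tubule markers summed to 158800 to 196700 CPM with tofogliflozin and 175400 to 183500 CPM on the diet alone, so the markers of the labelled tissue were abundant. Of these, 3 were above 0 and 3 below. Higher with tofogliflozin at an unadjusted p under 0.05 by edgeR was 1, where 12 of 460 miRNAs (2.61%) were. It was miR-204-5p, which like miR-181b-5p and miR-181d-5p was higher with tofogliflozin, at 442 ± 62.3 CPM against 275 ± 21.6 CPM on the diet alone (SD, n = 3 each). On the log2 scale miR-204-5p differed by 0.69 ± 0.15 (SE). Its adjusted p was 0.387 by edgeR, below which none of the 460 miRNAs went. It had an adjusted p of 0.016 by DESeq2 and one of 0.040 by edgeR with no low-count filter. The leukocyte and endothelial sums overlapped between the groups. The part of any of these markers in the values of the miR-181 members was not tested.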

How the data were processed

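Small RNA of renal cortex from 6 mice was sequenced, 1 library a mouse. The authors deposited whole-number read counts, not normalized, for each mature miRNA under each of its precursors. Cutadapt 1.14 and mm10 were used, per the submitters' processing notes; which aligner, counting program and miRBase release were used is not stated there. Of the 1900 names, 75 had several rows, of which the largest per library was kept. Columns of other samples numbered 0.

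Counts were tested with edgeR 4.0.16 (quasi-likelihood, TMM, low counts removed by filterByExpr at its minimum count of 10 and minimum total of 15, Benjamini-Hochberg over the 460 miRNAs left) in R 4.3.3, without covariates. SE is the absolute log2 fold change over the square root of F. Arm ratios used limma 3.58.1 on log2 ratios after 1 read was added to each arm, where the lower arm averaged 50 reads or more (91 hairpins). Single ratios used exact permutation tests (scipy 1.17.1). The ratio of miR-181a-1-3p to miR-181a-2-3p was not compared between groups, its denominator being 0. The scripts were tested on simulated data. Marker names were matched as miR-486b to miR-3107, miR-486a to miR-486 and miR-142a to miR-142. Named miRNAs were the members, the other family names, the 3 nearest profiles to miR-181a-5p and to miR-181c-5p, and at most 2 per list by smallest p. Outside that rule, miR-124-3p was named after its values were seen, because it was at 0. Alternatives were other size factors, filters, tools (DESeq2 1.42.0, limma-voom, a robust fit), row merging, pseudocounts, arm minimums, the replicate block and each library left out. The members and lists were chosen with earlier results of these data known, among them the value of miR-181b-5p. Reads carry no molecular identifiers in the tables, so limits and counting errors cover counting error only.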

Additional observations from a re-analysis of the deposited data

How the results depend on the processing

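Of 106 values of members under alternatives, 105 kept their direction and none passed the threshold. The exception, miR-181a-1-3p, lay between -0.31 and 0.11 as single libraries were omitted. miR-181b-5p ran from 0.26 to 0.42 and miR-181d-5p from 0.25 to 0.46 over the alternatives. Over all miRNAs, calls stayed at 0 with each library left out and rose to 10 with no low-count filter and 2 with DESeq2, no member among them. Arm ratio calls numbered 0 to 1 with a library left out (1 without tofogliflozin replicate 3, no member), and the miR-181c arm difference from -0.19 to 0.37. With a library left out, the log2 difference ran from -0.25 to 0.16 for miR-181a-5p over miR-181c-5p, from -0.45 to 0.29 for miR-181c-5p over miR-181d-5p and from -0.12 to 0.093 for miR-181b-5p over miR-181d-5p, and 0 to 1 ratios had groups that did not overlap. With 5 libraries the order test gave 0 pairs in each case, since its smallest p is then 0.0625. Elsewhere the cause was not tested. The family sum stayed from 0.16 to 0.29 higher on the log2 scale. Deviations of mice with 1 number were not alike (r = -0.0069, -0.15 and -0.17), so the numbers are not taken as pairs. A replicate block gave 0 calls, miR-181b-5p was at 0.34 and miR-181d-5p at 0.355, and 0 arm ratios were called. The smallest row per library was chosen after seeing the data. Depth limits miR-181c-3p, the tested member with the fewest reads, and miR-181a-2-3p, at 0 reads, could not be tested.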
